A study of Rattus norvegicus with 4 samples.

Results

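The interferon response genes described here are 32 genes that cells switch on when an interferon signals to them. They were chosen by symbol among the 25399 genes of the deposited feature tables, and all 32 symbols were present. Their transcripts were counted in single cells freed by enzymatic digestion from 2 kinds of rat muscle at 12 months of age. The limb muscle was the tibialis anterior (TA), and the other was the extraocular group (EOM), which turns the eyeball. There were 4 libraries, 1 of total cells from each muscle of wild-type (WT) and of DMD rats. DMD usually stands for Duchenne muscular dystrophy, a wasting disease caused by loss of dystrophin. The labels used here name no strain, no allele and no number of rats behind a library, and they name no treatment. The group of each library was taken from its disease state field, and the titles of all 4 libraries state the opposite disease state. The libraries are therefore called TA-WT, TA-DMD, EOM-WT and EOM-DMD after that field, and every direction given between a library labelled DMD and one labelled WT would turn if the titles are right.

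With 1 library per group there is no replicate check and no p-value. The intervals given are 95% exact intervals that cover counting error only, so a difference between libraries cannot be told apart from one between animals or between digestions. Levels are UMIs per 1000000 UMIs of the cell class in that library (CPM), a UMI being the molecular tag that marks 1 captured transcript. The reads come from the 3′ ends of transcripts, so levels were not divided by gene length. A member was called higher or lower where the CPM ratio was at least 2-fold and its interval left out 1, among members with at least 20 UMIs in both libraries together. List medians are log2 ratios computed with 10 CPM added to both sides.

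The analysis kept 13557 cells, between 1249 in EOM-WT and 7964 in TA-DMD, with medians of 1221.5 (TA-DMD) to 4486 (EOM-DMD) UMIs per cell, and 10 cell barcodes occurred in more than 1 library among them. RNA of other cell types was more evident in TA-DMD: fibroblast marker genes summed to 824 CPM in its endothelial-like cells, against 100.1 to 331 CPM in those of the other libraries. Dmd, the dystrophin gene, had 126, 71.4, 66.9 and 72.3 CPM in the satellite-like cells of TA-WT, TA-DMD, EOM-WT and EOM-DMD. In mural-like cells it had 62.6, 37.5, 60.3 and 37.8 CPM, lower under the DMD label in both muscles, and in myofibre-like cells 2, 22, 0 and 3 UMIs. Since the allele is not named and the reads come from 3′ ends, these values check no label.

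Interferons are secreted proteins that warn cells of viruses and of damage. Type I interferons bind the IFNAR receptor and act through a complex with STAT2 and IRF9, which binds a promoter element called ISRE, while the response to interferon gamma runs through an element called GAS. Endothelial cells, which line blood vessels, and leukocytes are among the cells that keep a basal interferon program in healthy tissue. The products block viral entry, translation, replication or release (Bst2, Ifit2, Ifit3, Mx1, Mx2, the Oas family, Rsad2) or sense viral RNA (Ifih1, Dhx58). Others add or remove the ubiquitin-like protein ISG15 (Herc6, Usp18) or load peptides on MHC class I (Psmb8, Psmb9, Tap1).

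Promoters were read from RefSeq on build GRCr8, as the 250 bases before and the 50 bases after each start. The counts themselves were made on another build, rn6 per the submitters' processing notes, and no coordinate was converted. Of the 32 genes, 25 matched an entry, and Dhx58, Ifi27l2b, Ifit1, Ifit2, Isg15, Mx2 and Usp18 did not. The core of an ISRE, written here as GAAA, any 2 bases and GAAA, occurred on either strand in 15 of the 25 promoters (60.0%), against 1312 of all 33469 promoters (3.92%). The longer form, with CT after these bases, was found in 7 of the 25 (28.0%), against 0.278% of all promoters. The GAS letters, TTC, any 3 bases and GAA, which read the same on both strands, occurred in 6 of the 25 (24.0%: Bst2, Irf1, Irf9, Oas1a, Parp14 and Psmb8), against 8.87% of all. A match is a description of the letters and not a bound site.

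The Bst2 promoter is shown in full upstream of the start because the gene has the highest endothelial level of all 32 in 2 of the libraries and lay lower in both libraries labelled DMD. Its capitals mark the stretch in which 1 GAS and 2 overlapping ISRE matches follow each other (chr16:18254968-18255217, minus strand).

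Bst2: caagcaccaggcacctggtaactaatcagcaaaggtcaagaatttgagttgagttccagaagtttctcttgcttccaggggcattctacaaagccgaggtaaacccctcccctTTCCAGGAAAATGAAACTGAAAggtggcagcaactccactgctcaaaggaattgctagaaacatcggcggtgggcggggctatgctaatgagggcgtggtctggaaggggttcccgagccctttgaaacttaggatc

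The next windows show the ISRE match (capitals) of genes whose levels are followed below, 1 window per gene, read along the gene's strand, so that a match on the opposite strand reads TTTC, any 2 bases and TTTC. They lie at chr1:241527267-241527306 (Ifit3, plus strand), chr1:205800068-205800107 (Irf7, minus), chr6:48788243-48788282 (Rsad2, minus), chr12:47383312-47383351 (Oasl2, minus), chr12:41330410-41330449 (Oas1a, plus), chr6:128355213-128355252 (Ifi27, plus), chr2:234005681-234005720 (Gbp2, plus) and chr11:78408043-78408082 (Parp14, plus).

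Ifit3: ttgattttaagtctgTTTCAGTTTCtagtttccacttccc
Irf7: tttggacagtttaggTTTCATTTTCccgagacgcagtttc
Rsad2: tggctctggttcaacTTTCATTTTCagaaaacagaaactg
Oasl2: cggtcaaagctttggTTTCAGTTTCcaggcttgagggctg
Oas1a: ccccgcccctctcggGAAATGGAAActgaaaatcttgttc
Ifi27: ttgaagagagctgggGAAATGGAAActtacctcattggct
Gbp2: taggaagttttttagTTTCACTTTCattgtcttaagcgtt
Parp14: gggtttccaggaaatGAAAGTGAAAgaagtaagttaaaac

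Irf1 and Irf9, transcription factors of the response, had a GAS match (capitals) and no ISRE match in their windows. These lie at chr10:38417778-38417816 (Irf1, plus strand) and chr15:33065722-33065760 (Irf9, plus strand).

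Irf1: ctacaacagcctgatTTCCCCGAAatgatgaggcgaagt
Irf9: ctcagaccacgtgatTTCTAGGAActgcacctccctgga

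Among classes of at least 50 cells, most members had their highest level in endothelial-like cells in 3 of the 4 libraries. Classes were named from marker genes after clustering without any interferon gene, and ranks were taken among classes of at least 50 cells, of which there were 5 in TA-WT, 12 in TA-DMD, 5 in EOM-WT and 8 in EOM-DMD. Of the 32 members, 29 had their highest CPM in endothelial-like cells in each of TA-WT, EOM-WT and EOM-DMD, against 11 in TA-DMD. In TA-DMD 12 members were highest in neutrophil-like cells and 4 in NK-like cells, classes that had fewer than 50 cells in every other library. Some of these ranks rest on few counts in the 52 neutrophil-like cells. Xaf1 had 2 UMIs there, Herc6 and Ifih1 had 3 each and Oasl had 5. For Herc6 this was 50.5 CPM, against 46.6 in endothelial-like cells. Endothelial-like cells ranked first in all 4 libraries for 10 genes, namely Dtx3l, Gbp2, Ifi27, Ifit2, Irf1, Mx2, Parp9, Stat2, Trim25 and Usp18. The 36 neutrophil-like cells of EOM-DMD were too few to be ranked. They stood above the endothelial-like cells of that library for Gbp2, Ifit2, Stat2 and Usp18, and below for Ifi27, Irf1, Mx2 and Trim25. Ifi27l2b, a small protein of the Ifi27 family, was the exception in every library. Among the ranked classes its highest level was in satellite-like cells, the muscle stem cells. It had 1974, 2112, 1657 and 3230 CPM there in TA-WT, TA-DMD, EOM-WT and EOM-DMD. Smaller classes, not ranked, could stand higher, as with 4079 CPM in the 36 neutrophil-like cells of EOM-DMD.

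**Figure D1:**
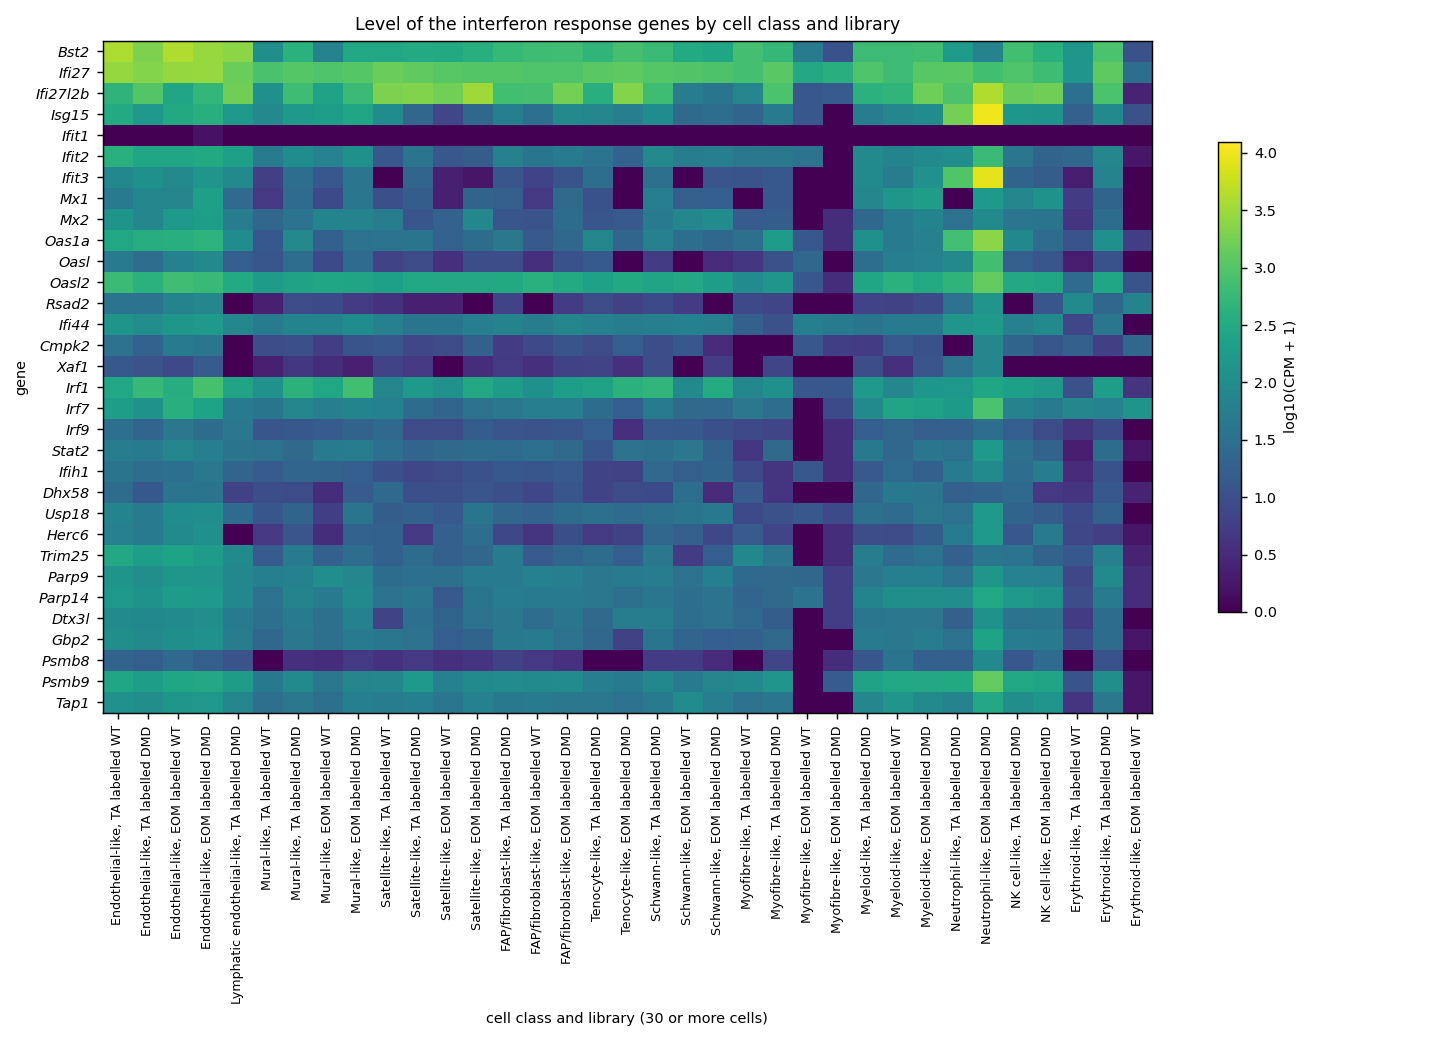
Level of the 32 interferon response genes (rows) in each cell class and library with 30 or more cells (columns), as log10(CPM + 1), from 0 (dark) to above 4 (yellow). Bst2 and Ifi27 are bright in the 4 endothelial-like columns, Ifi27l2b in the satellite-like columns, and Isg15 and Ifit3 in the neutrophil-like column of EOM-DMD.

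The 32 genes together made up 11386, 8583, 11786 and 11550 CPM of the endothelial-like class in TA-WT, TA-DMD, EOM-WT and EOM-DMD. The class held 1557, 2552, 546 and 583 cells, and its own marker genes summed to 8641, 5868, 7923 and 8501 CPM. TA-DMD was thus the lowest of the 4 libraries by both sums. Bst2 (ENSRNOG00000059900), also called tetherin, which holds budding viruses at the cell surface, had 3961, 1944, 4071 and 2882 CPM in the same order. Ifi27, a small membrane protein induced by type I interferon, had 2870, 2210, 2871 and 2934 CPM. For Bst2 the libraries labelled WT were the highest pair, while for Ifi27 TA-DMD was the lowest and the other libraries lay between 2870 and 2934 CPM. Ifi27l2b (ENSRNOG00000026605) had 463, 1021, 257 and 524 CPM, so that it was higher in the library labelled DMD of each muscle.

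Among the antiviral effectors, Isg15 (ENSRNOG00000021802), the ubiquitin-like tag itself, stood at 317, 151, 311 and 378 CPM in endothelial-like cells of TA-WT, TA-DMD, EOM-WT and EOM-DMD. Mx1 (ENSRNOG00000001959), a GTPase that traps viral nucleoproteins, had 46.2, 75.3, 72.5 and 202 CPM. Oas1a, an oligoadenylate synthetase that triggers RNA decay, had 271, 354, 378 and 443 CPM. Isg15 was lowest in TA-DMD, whereas Mx1 and Oas1a were lowest in TA-WT. Mx2 followed Isg15, with 134, 78.0, 157 and 189 CPM. Ifit3, which binds viral RNA together with its relatives, followed Mx1, with 81.2, 113, 83.1 and 140 CPM. Oasl2 and Ifit2 were lowest in TA-DMD too, with 628, 412, 690 and 581 CPM for Oasl2 and 403, 258, 270 and 306 CPM for Ifit2. The scarcer Oasl, Rsad2 and Cmpk2, the last a nucleotide kinase beside Rsad2 in the genome, stayed between 18.5 (Cmpk2 in TA-DMD) and 83.9 CPM (Oasl in EOM-DMD). Ifit1 was at 0 UMIs in 3 libraries and at 1 UMI in EOM-DMD, so the count of 0 allows up to 0.778 CPM in TA-WT, 0.466 in TA-DMD and 2.11 in EOM-WT.

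The transcription factors split as well. Irf1 (ENSRNOG00000008144), which answers interferon gamma and inflammatory cytokines, had 287, 550, 352 and 806 endothelial CPM in TA-WT, TA-DMD, EOM-WT and EOM-DMD. Irf7, the amplifier of type I interferon transcription, had 201, 120, 377 and 239 CPM. In both muscles Irf1 was higher and Irf7 lower in the library labelled DMD. Irf9 and Stat2, partners in the ISRE-binding complex, ranged from 20.8 to 41.5 CPM and from 46.4 to 75.3 CPM.

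The remaining roles covered lower levels. Dhx58, an RNA sensor also called LGP2, had 26.7, 12.3, 36.6 and 36.1 CPM in endothelial-like cells of TA-WT, TA-DMD, EOM-WT and EOM-DMD. Ifih1, the RNA sensor MDA5, ranged from 28.6 to 43.5 CPM. Usp18, which removes ISG15 and restrains the type I receptor, had 69.8, 45.5, 97.9 and 102 CPM. Trim25, a ubiquitin ligase that activates RNA sensing, had 300.1, 189, 238 and 185 CPM. Dhx58 and Usp18 were lowest in TA-DMD, and Trim25 was lower in the library labelled DMD of each muscle. Herc6, Dtx3l, Parp9 and Parp14 ranged from 46.6 CPM (Herc6 in TA-DMD) to 175 CPM (Parp14 in EOM-WT). Psmb9, an immunoproteasome subunit, had 269, 199, 258 and 301 CPM, and Tap1, a subunit of the peptide transporter, had 119, 103, 147 and 151 CPM. Gbp2, a guanylate-binding protein, stayed between 84.8 and 116 CPM. Ifi44 ranged from 100.7 to 161 CPM, Psmb8 from 16.2 to 24.6 CPM and Xaf1 from 7.04 to 14.1 CPM.

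In TA endothelial-like cells most of these genes were lower in the library labelled DMD. Of 31 members tested, 25 lay below and 6 above a ratio of 1, and the median was -0.32 on the log2 scale, against -0.07 for all 10671 genes tested. Only Ifi27l2b was called higher, 2.20-fold (2.09 to 2.32), where 7.10% of all genes tested were called higher. Isg15 was 2.11-fold lower (1.93 to 2.29), Bst2 2.04-fold lower (1.99 to 2.09) and Dhx58 2.18-fold lower (1.61 to 2.96), where 6.01% of all genes were called lower. With a median-of-ratios scaling, which added 0.15 to all log2 ratios, no member was called lower and 2 were called higher. No share over all genes is given for that scaling. Irf1 was 1.91-fold higher (1.79 to 2.05), Mx1 1.63-fold (1.37 to 1.95), Ifit3 1.39-fold (1.22 to 1.60) and Oas1a 1.31-fold (1.21 to 1.41), all short of the 2-fold rule. The median of the effectors was -0.38 (15 tested), that of the 4 transcription factors -0.26 and that of the 3 antigen processing genes -0.19.

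In EOM endothelial-like cells the balance lay the other way, and 20 of 31 members were above 1. The median was 0.14, against -0.08 for all 8556 genes tested. Mx1 was 2.79-fold higher in the library labelled DMD (2.23 to 3.51), Irf1 2.29-fold (2.06 to 2.54) and Ifi27l2b 2.04-fold (1.80 to 2.31), where 2.47% of all genes were called higher. No member was called lower, where 3.54% of all genes were. The lowest ratios of well-counted members were those of Irf7, 1.57-fold lower (1.38 to 1.80), and Bst2, 1.41-fold lower (1.36 to 1.47). Isg15 was 1.22-fold higher (1.07 to 1.38), where in TA it was lower. Ifi27l2b in EOM-DMD endothelial-like cells (524 CPM) was below 0.2 times its level in the satellite-like cells of that library (3230 CPM).

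**Figure D2:**
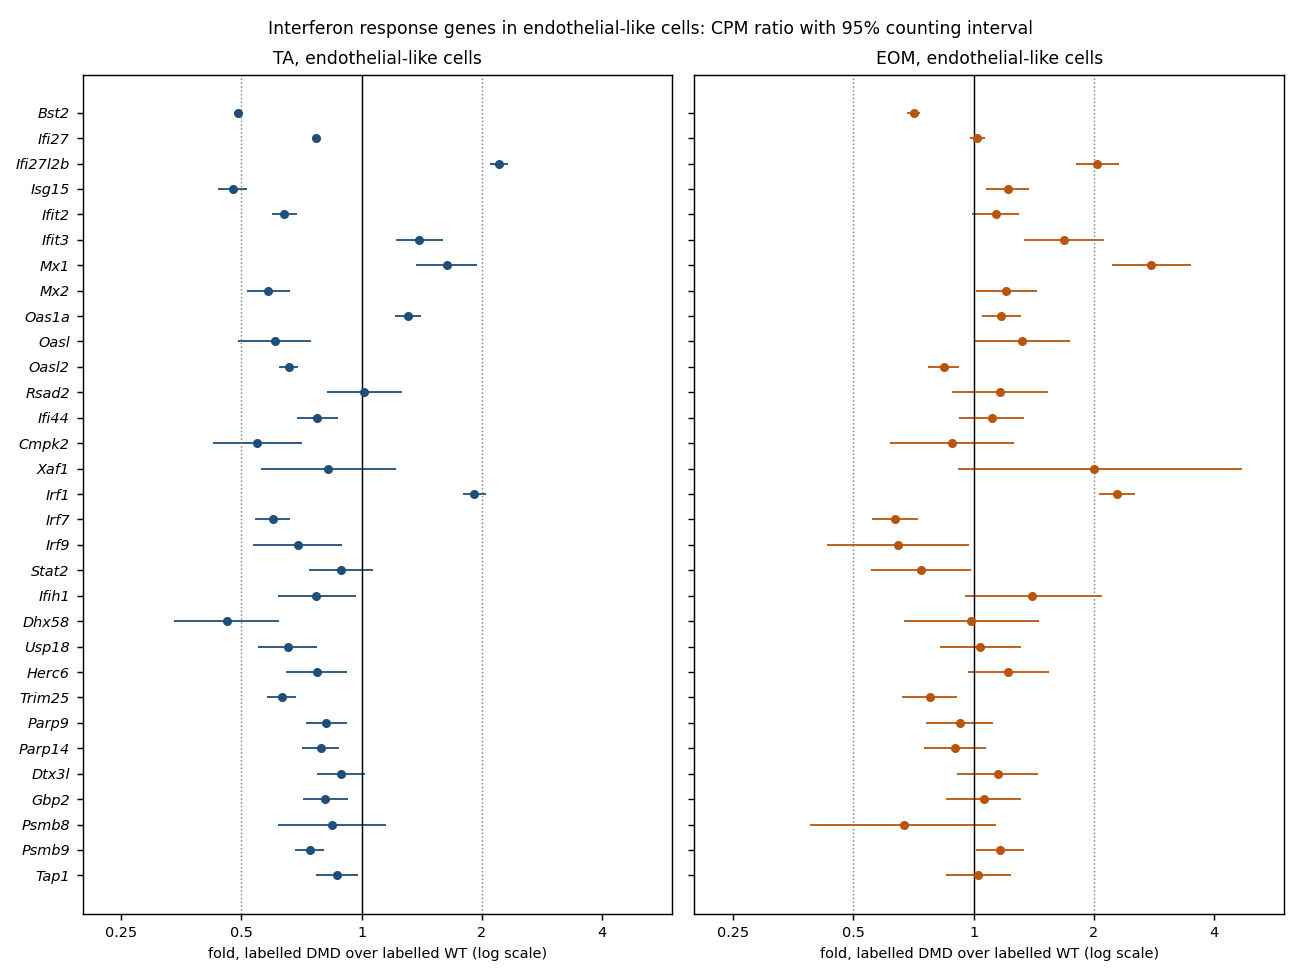
CPM ratio of each tested interferon response gene in endothelial-like cells, labelled DMD over labelled WT, in TA (left) and EOM (right), on a log axis. Points are ratios, bars are 95% counting intervals, the solid line is a ratio of 1 and the dotted lines mark 2-fold. Ifi27l2b lies right and Bst2 left of 1 in both muscles, while Isg15 is left in TA and right in EOM.

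Between muscles 24 of 31 members were above 1 in the endothelial-like cells of EOM-WT over TA-WT, with a median of 0.18. No member passed 2-fold there, where 2.13% of all 9499 genes tested were called higher in EOM-WT and 2.19% lower. Irf7 was 1.88-fold higher in EOM-WT (1.68 to 2.10) and Rsad2, the radical-SAM enzyme viperin, 1.86-fold (1.42 to 2.44). Between the libraries labelled DMD, 29 of 31 members were above 1 in EOM-DMD over TA-DMD, with a median of 0.48, against 0.00 for all 10299 genes. Called higher were 9 of 31, where 3.02% of all genes were, namely Isg15, Mx1, Mx2, Oasl, Usp18, Rsad2, Herc6, Dhx58 and Cmpk2. Isg15 was 2.51-fold higher (2.27 to 2.78) and Oasl 2.92-fold (2.32 to 3.66). The other 7 ran from 2.14-fold for Rsad2 (1.71 to 2.67) to 2.94-fold for Dhx58 (2.07 to 4.18). None was called lower, where 4.74% of all genes were, although Ifi27l2b came near at 1.95-fold lower (1.81 to 2.09).

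The endothelial-like clusters differed in level and in how many cells each library gave to them. Clustered without the interferon genes, the class formed 5 clusters, of which 1 (cluster 18) was led by Plvap, Selp, Vwf, Sele and Vcam1, genes of venous and activated endothelium. It held 641 of the 2552 endothelial-like cells of TA-DMD (25.1%), against 14 cells in TA-WT, 5 in EOM-WT and 21 in EOM-DMD. Its summed level of 17 core genes was 1021 CPM (977 to 1066) in TA-DMD and 904 CPM (755 to 1073) in EOM-DMD. The core consists of type I targets chosen to leave out Bst2, Ifi27, Ifi27l2b and the antigen processing genes. Every other cluster lay higher, from 1785 to 4662 CPM.

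Within the other clusters the TA libraries were nearer to each other in the core genes. TA-DMD over TA-WT was 1.02 (0.956 to 1.09) in cluster 0, led by Ca4, Esm1 and Kdr, and 0.851 (0.779 to 0.931) in cluster 3, led by Cyyr1 and Aqp1, a shallow cluster with medians of 745 to 990 UMIs. The ratio was 1.03 (0.948 to 1.12) in cluster 5, led by arterial genes such as Gja5 and Dll4, and 1.08 (1.02 to 1.15) in cluster 6, led by Cxcl12, Aqp1 and Flt1. EOM-DMD over EOM-WT stayed above 1 in cluster 0, at 1.39 (1.28 to 1.51), and in cluster 6, at 1.21 (1.13 to 1.29), and its interval included 1 in cluster 3 (1.18, 0.982 to 1.42). Cluster 5 had 40 cells in EOM-WT, and no such ratio was taken. Its core sum was 1914 CPM (1713 to 2132) in EOM-WT and 2456 CPM (2263 to 2662) in EOM-DMD. EOM-WT over TA-WT was 1.21 (1.16 to 1.27) in cluster 0, 1.14 (0.969 to 1.33) in cluster 3 and 1.24 (1.14 to 1.34) in cluster 6. Over TA-DMD, EOM-DMD was 1.65-fold higher in cluster 0, 1.58-fold in cluster 3, 1.33-fold in cluster 5 and 1.38-fold in cluster 6.

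**Figure D3:**
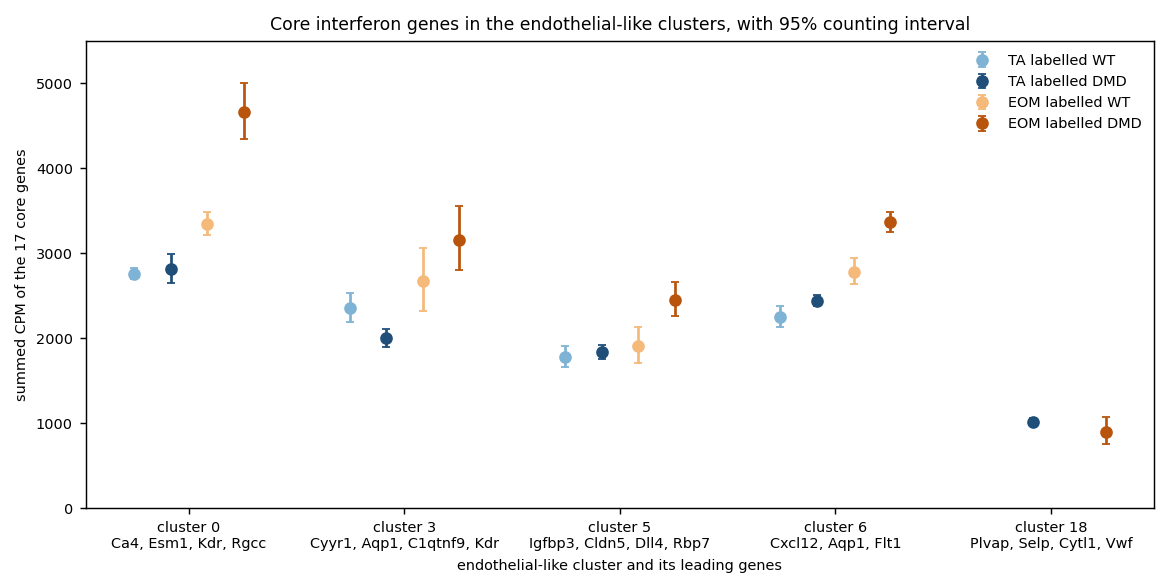
Summed CPM of the 17 core interferon genes in each endothelial-like cluster (x axis, with leading genes) and library (colours); bars are 95% counting intervals, and combinations with fewer than 20 cells are not drawn. Cluster 18 lies near 1000 CPM in both drawn libraries, and EOM labelled DMD is the highest point in each of the other 4 clusters.

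Single genes still differed within these clusters. Ifi27l2b was 2.69-fold, 2.09-fold, 7.43-fold and 3.43-fold higher in TA-DMD than in TA-WT in clusters 0, 3, 5 and 6. Bst2 was 1.47-fold, 2.01-fold, 1.24-fold and 1.43-fold lower in the same clusters. Both therefore kept their direction in all 4. Isg15 was 1.83-fold, 1.08-fold (interval 0.735 to 1.57), 1.81-fold and 1.58-fold lower, so its difference was within counting error in cluster 3. Mx1 was 3.29-fold, 1.27-fold (0.765 to 2.19), 2.33-fold and 2.97-fold higher. With cluster 18 left out, an alternative chosen after seeing the data, the TA median was -0.20. Mx1 (2.19-fold) and Ifi27l2b (2.20-fold) were then called higher, where 4.60% of all genes were, and no member was called lower, where 4.44% were. Isg15 was 1.73-fold and Bst2 1.76-fold lower in that set. For EOM-DMD over TA-DMD without cluster 18, 6 members were called higher (Isg15, Mx1, Mx2, Oasl, Herc6 and Dhx58; 2.55% of all genes) and 1 lower (Ifi27l2b; 3.92%).

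From cell to cell the core was uneven. Each cell was thinned to 1000 UMIs, which left out 201, 794, 41 and 71 shallower endothelial-like cells of TA-WT, TA-DMD, EOM-WT and EOM-DMD. At least 3 core UMIs were found in 38.3% of the 1356 remaining cells of TA-WT (35.7 to 40.9), 26.4% of 1758 in TA-DMD (24.3 to 28.5), 43.6% of 505 in EOM-WT (39.2 to 48.0) and 42.0% of 512 in EOM-DMD (37.7 to 46.4). Without thinning the shares were 69.7%, 49.5%, 74.7% and 73.8%. Erythroid-like cells are no plain measure of free RNA, since Rsad2 ranked highest in them in both libraries labelled WT. It had 91.1 CPM there in TA-WT, against 35.5 in endothelial-like cells, and 66.6 against 66.2 in EOM-WT. Irf7 ranked second in them in both. The shares of erythroid-like cells with 3 core UMIs were 5.26% in TA-WT (57 cells), 9.85% in TA-DMD (132 cells), 0 of 66 in EOM-WT and 0 of 10 in EOM-DMD. With 3 counts as the limit that a count of 0 allows, these shares could reach 4.55% and 30%. The intervals of TA-WT (1.10 to 14.6) and TA-DMD (5.35 to 16.3) overlapped, and the few erythroid-like cells of EOM-DMD bound their share only loosely. Before thinning, the median depth of erythroid-like cells was 18255, 976, 19818 and 17219.5 UMIs in TA-WT, TA-DMD, EOM-WT and EOM-DMD. Their shares are therefore not like measures of free RNA in the 4 libraries. Cells near the boundary were many, with 271, 375, 88 and 101 cells at 2 core UMIs and 190, 190, 84 and 62 at 3.

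The spread between cells was also described. The variance over the mean of the core UMIs, which is 1 for counting noise alone, was 2.50, 2.98, 3.67 and 4.83 in TA-WT, TA-DMD, EOM-WT and EOM-DMD. In EOM-DMD the 5% of cells with the most core UMIs held 25.4% of them, against 20.2% in TA-WT. Cells with none were 15.3%, 23.9%, 15.2% and 17%. Isg15 gave a variance over mean of 1.66, 1.74, 2.11 and 2.90 and Bst2, present in 80.4% to 95.2% of thinned cells, 1.65 to 1.86. The median over all genes was 1.04 to 1.05, and Ifi27l2b, with 2.39 to 3.75, was among the least even. Variance over mean can rise with the level alone, and neither genes nor libraries were matched by level here.

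Core genes were found together. Ifit3 was detected in 11% of the thinned TA-WT endothelial-like cells with an Isg15 UMI and in 5.63% of those without, and in TA-DMD in 20.7% and 7.99%. In EOM-WT the shares were 17.2% and 2.46%, and in EOM-DMD 21.7% and 5.36%. Rsad2 gave 17.5% and 3.06% in EOM-DMD and 6.19% and 3.19% in TA-WT. Irf1 was not tied to Isg15 in this way: in TA-DMD it was detected in 36.3% of cells with an Isg15 UMI and in 39.3% of those without. These shares describe cells of 1 library each and carry no test.

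**Figure D4:**
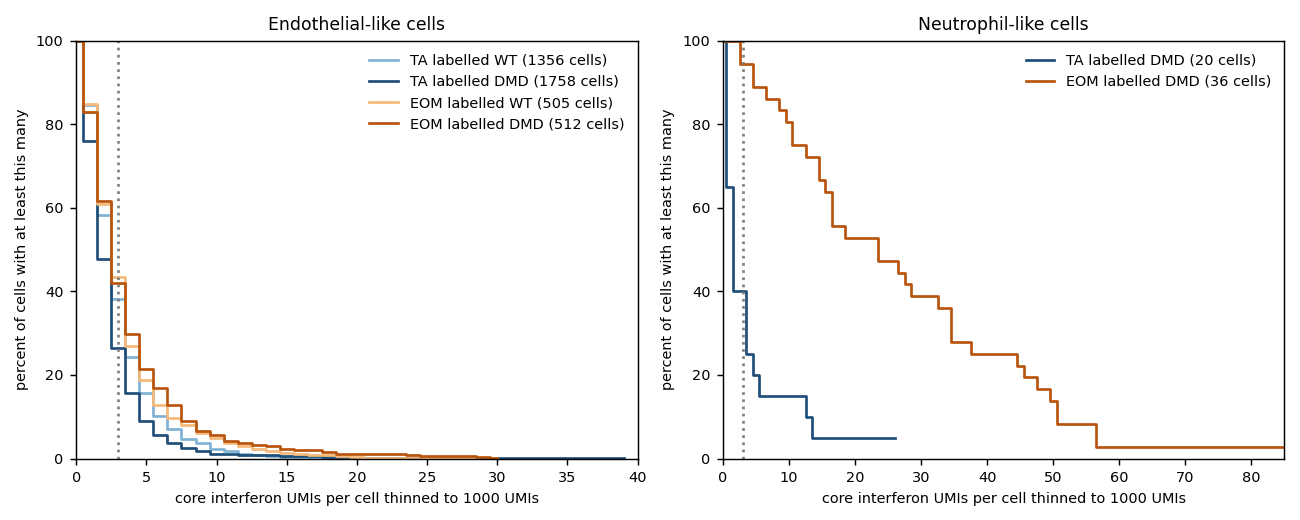
Percent of cells (y axis) with at least a given number of core interferon UMIs (x axis) after thinning each cell to 1000 UMIs, for endothelial-like cells (left) and neutrophil-like cells (right), 1 line per library; the dotted line marks 3 UMIs. TA labelled DMD is the lowest endothelial line at 3 UMIs (26.4%), and the neutrophil-like cells of EOM labelled DMD reach far beyond all endothelial lines.

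Among genes outside the lists used here, the 10 whose thinned counts followed the core sum most closely in endothelial-like cells were AABR07025140.1, AABR07059663.1, Apol9a, Ube2l6, LOC100911104, RGD1309362, Slfn2, Oas1f, Lgals9 and Sp110. Their mean correlation over the 4 libraries ran from 0.149 to 0.238 among 4038 candidates, weak values of sparse counts that share each cell's library. Ube2l6 is the conjugating enzyme for ISG15. Of the 6 with a RefSeq promoter, 3 (Apol9a, Lgals9 and Sp110) held the ISRE letters.

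Mural-like cells, the pericytes and smooth muscle that wrap vessels, had far lower levels. Over the whole class most members were higher in the library labelled DMD in both muscles, but in TA the class sat in different clusters in the 2 libraries. The class held 180, 1631, 90 and 155 cells in TA-WT, TA-DMD, EOM-WT and EOM-DMD, and the 32 genes summed to 1951, 3893, 2659 and 4268 CPM. Irf1 had 119, 429, 282 and 727 CPM. It was 3.61-fold higher in TA-DMD than in TA-WT (2.93 to 4.48) and 2.58-fold higher in EOM-DMD than in EOM-WT (2.11 to 3.17). Bst2 had 108, 411, 67.5 and 272 CPM, or 3.81-fold (3.07 to 4.79) and 4.03-fold (2.71 to 6.22). Ifi27l2b had 112, 667, 229 and 619 CPM, or 5.98-fold (4.84 to 7.48) and 2.70-fold (2.16 to 3.40). For Bst2 the direction over the whole class is opposite to that in endothelial-like cells.

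In TA 12 of 29 tested members were called higher in mural-like cells, where 6.34% of all 9884 genes tested were, and none lower, where 6.26% were. These were Bst2, Ifi27l2b, Ifit2, Ifit3, Irf1, Mx1, Oas1a, Oasl, Parp14, Psmb9, Rsad2 and Trim25, and the median was 0.65, against -0.10 for all genes. In EOM 7 of 25 were called higher, where 5.07% of all 6485 genes were, and none lower, where 3.90% were, with a median of 0.64 against -0.08. The 7 were Bst2, Ifi27l2b, Ifit3, Irf1, Mx1, Oasl and Usp18. Several of these genes are rare in the class. Oas1a had 12.5, 85.4, 16.9 and 33.9 CPM, and was 6.81-fold higher in TA-DMD (3.66 to 14.3). Ifit3 had 5.01, 28.9, 12.1 and 40.4 CPM, 5.76-fold (2.19 to 21.5) and 3.35-fold (1.29 to 11) higher. Counts behind the rarest were small, and Mx1 had 3, 100, 3 and 30 UMIs in TA-WT, TA-DMD, EOM-WT and EOM-DMD, so its 5.40-fold difference in EOM carried an interval of 1.68 to 27.7. Rsad2 had 1, 31, 3 and 3 UMIs and Usp18 9, 76, 2 and 28, and their ratios, 6.44 (1.07 to 262) in TA and 7.57 (1.91 to 65.5) in EOM, are set by those few counts. The other called genes differed less: Ifit2, Parp14 and Psmb9 were 2.02-fold to 2.04-fold, Oasl 2.47-fold (1.25 to 5.55) and Trim25 3.40-fold (1.85 to 6.93) higher in TA-DMD. Oasl, on 3 UMIs in EOM-WT, had a ratio of 3.60 in EOM (1.07 to 18.9).

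The largest mural-like cluster in TA-WT was cluster 4, led by the pericyte genes Kcnj8, Abcc9 and Rgs5, with 121 of the 180 cells. In TA-DMD it held 253 of the 1631 cells, while 796 lay in the shallow cluster 9 (median 848 UMIs), which had 14 cells in TA-WT. Within cluster 4, an alternative chosen after seeing the data, the TA median was 0.069 over 20 members, and 4 (Ifi27l2b, Irf1, Isg15 and Oasl) were called higher, where 3.09% of all genes were. None was called lower, where 4.90% were. Irf1 stayed 4.18-fold higher (3.12 to 5.70), whereas Bst2 had 153 and 130 CPM in TA-WT and TA-DMD, a ratio of 0.850 (0.626 to 1.16). In EOM, where cluster 4 held 70 of 90 and 100 of 155 cells, the median was 0.57 over 18 members. There Ifi27l2b, Ifit2, Irf1, Isg15 and Usp18 were called higher, where 3.57% of all genes were, and none lower, where 4.14% were. Bst2 gave 1.62 in EOM, with an interval that included 1 (0.953 to 2.83). Cluster 12, led by the smooth muscle genes Tagln, Acta2 and Myh11, was likewise looked at after seeing the data. It held 32 cells in TA-WT and 435 in TA-DMD, and its TA median was 0.67 over 17 members. There 7 (Bst2, Ifi27l2b, Irf1, Oasl2, Parp14, Psmb9 and Trim25) were called higher, where 5.68% of all genes were. None was called lower, where 3.7% were.

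Markers of endothelium moved with the values of the whole class. The 7 endothelial markers summed to 606, 1331, 583 and 1034 CPM in the mural-like cells of TA-WT, TA-DMD, EOM-WT and EOM-DMD, with Cdh5, Cldn5, Egfl7 and Tie1 at 0 in EOM-WT and none at 0 in the others. Gpihbp1, a protein of capillary endothelium, had 27.6, 197, 0 and 71.6 CPM. When members were kept only if they reached 0.2 times the level of the highest class, 9 of 25 were called higher in TA (median 0.55) and 4 of 20 in EOM (median 0.47). The shares of all genes called higher, without such a filter, were 6.34% in TA and 5.07% in EOM. Bst2 did not reach that level in either muscle and was left out. The part of endothelial RNA in the mural values was not tested further.

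**Figure D5:**
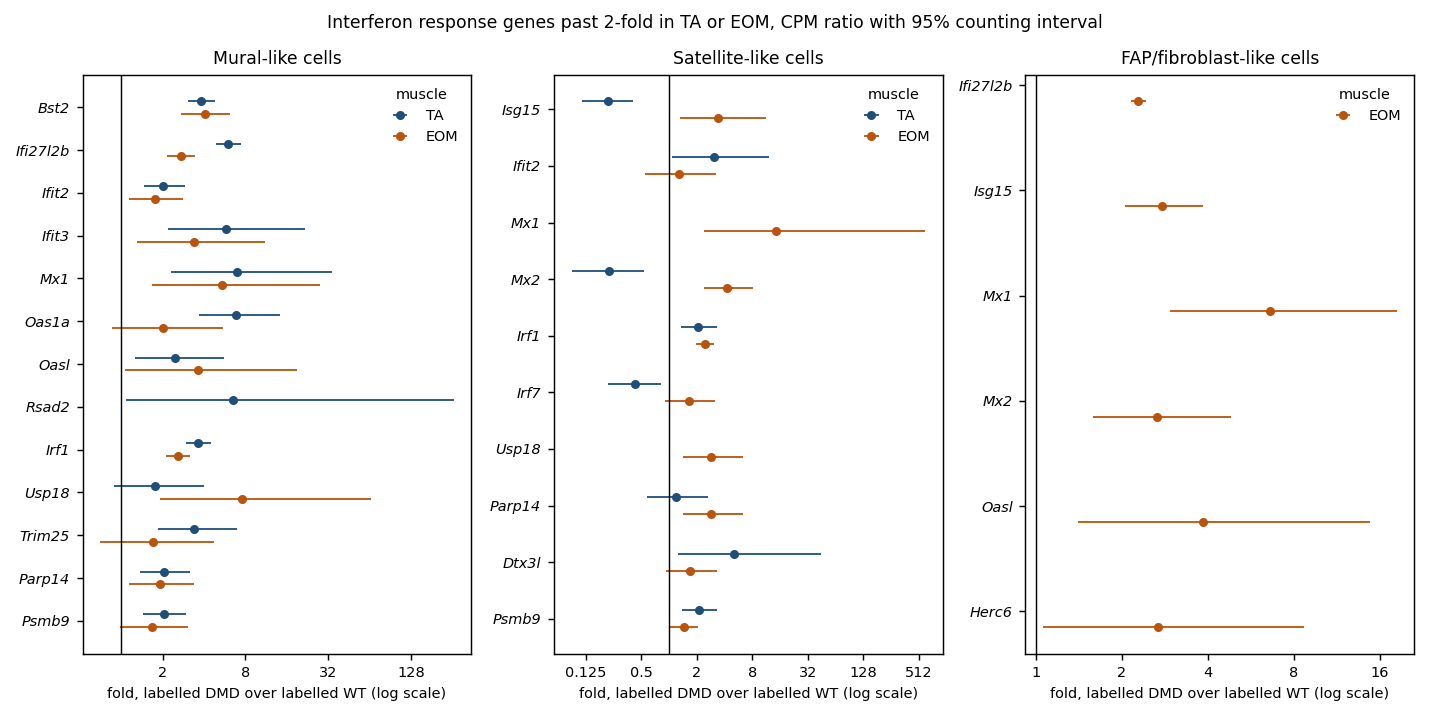
CPM ratio, labelled DMD over labelled WT, of the interferon response genes past 2-fold in TA (blue) or EOM (orange), on log axes, in mural-like (left), satellite-like (middle) and FAP/fibroblast-like cells (right, EOM only). Points are ratios, bars 95% counting intervals and the vertical line a ratio of 1; all mural-like points lie right of 1, and Isg15 and Mx2 of the satellite-like cells lie on opposite sides in TA and EOM.

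Satellite-like cells numbered 56, 306, 134 and 225 in TA-WT, TA-DMD, EOM-WT and EOM-DMD. In TA they too sat in different clusters, with 49 of the TA-WT cells in cluster 8 (led by Nppc and Cpa1) and 245 of the TA-DMD cells in the shallow cluster 14 (median 898 UMIs), while cluster 8 held 132 and 222 of the EOM cells. Their summed level was 4772, 4806, 3862 and 5906 CPM. Irf1 was again higher in both libraries labelled DMD, with 75.1, 157, 119 and 293 CPM, a 2.09-fold difference in TA (1.35 to 3.35) and a 2.45-fold difference in EOM (1.95 to 3.12). Mx2 had 51.1, 11.5, 18.4 and 78.7 CPM. It was 4.45-fold lower in TA-DMD (1.88 to 11.3) and 4.28-fold higher in EOM-DMD (2.43 to 8.12). Isg15 rested on 33, 17, 5 and 28 UMIs, and the 33 UMIs of TA-WT came from 3.57% of its 56 cells. With those few cells in, Isg15 was 4.57-fold lower in TA-DMD (2.48 to 8.76).

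Of the 19 members tested in TA satellite-like cells, Dtx3l, Ifit2, Irf1 and Psmb9 were called higher, where 7.03% of all 6333 genes tested were, and Irf7, Isg15 and Mx2 lower, where 5.83% were. The median was 0.10, against -0.04. Psmb9 had 78.1 and 164 CPM in TA-WT and TA-DMD, a 2.11-fold difference (1.37 to 3.34). Irf7 had 21 UMIs in each, or 63.1 and 26.8 CPM, a 2.36-fold difference (1.22 to 4.53). Dtx3l and Ifit2 rested on 2 and 4 UMIs in TA-WT, and their ratios of 5.09 (1.26 to 44.5) and 3.08 (1.08 to 12.0) are loose. Without the 5% of cells with the highest member share no member was called lower, which can follow from choosing cells by the members compared. The endothelial markers summed to 39.1 CPM in the TA-WT and 559 CPM in the TA-DMD satellite-like cells, and their part in the higher calls was not tested. Within cluster 8 (49 and 61 TA cells), chosen after seeing the data, the TA median was -0.18 over 14 members. Irf1 alone was then called higher, where 6.19% of all genes were, and Irf7 and Isg15 lower, where 5.29% were. In EOM 23 of 25 members were above 1, with a median of 0.49 against -0.12. Isg15, Irf1, Mx1, Mx2, Parp14 and Usp18 were called higher, where 2.46% of all 7609 genes were, and none lower, where 4.69% were. Mx1 rested on 1 UMI in EOM-WT and 24 in EOM-DMD, so its 14.7-fold ratio carried an interval of 2.39 to 604. Parp14 and Usp18 each had 10 and 47 UMIs, a 2.87-fold difference (1.43 to 6.38), and Isg15 was 3.43-fold higher (1.31 to 11.4). Endothelial markers were low in both EOM libraries, at 40.7 and 16.9 CPM. With a stricter filter on cells 3 members were called higher, and with thinned cells 2, counts for which no share over all genes is given. Within cluster 8, 7 of 25 were called higher in EOM, where 2.31% of all genes were, and none lower, where 5.16% were.

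Fibro-adipogenic progenitors and fibroblasts (FAP/fibroblast-like cells) were too few in TA-WT (9 cells) for a comparison there. In EOM, with 228 and 687 cells, 7 of 30 members were called higher in the library labelled DMD, where 1.66% of all 10106 genes tested were, and none lower, where 3.44% were. The median was 0.32, against -0.08. Isg15 was 2.77-fold higher (2.04 to 3.83), from 30.1 to 83.3 CPM, and Mx1 6.59-fold (2.94 to 18.3), from 3.84 to 25.3 CPM. Ifi27l2b was 2.28-fold higher (2.15 to 2.42), from 765 to 1745 CPM, and Mx2 (2.66-fold, 1.58 to 4.80), Herc6 (2.68-fold, 1.06 to 8.71) and Oasl (3.86-fold, 1.41 to 14.8) were also called. Rsad2 had 0 UMIs in EOM-WT and 20 in EOM-DMD, at least 2.24-fold higher when set against 3 counts. Without the 5% of cells with the highest member share, no member was called higher. Those cells were chosen by the levels of the members compared, so this loss of calls can follow from the choice itself. Endothelial markers were at 40.3 and 52.8 CPM in these cells.

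Under the limit of 50 cells in both libraries, whole classes of leukocytes and glia could be compared only between the libraries labelled DMD. In myeloid-like cells (565 in TA-DMD, 141 in EOM-DMD) Ifi27l2b was 3.79-fold, Mx2 3.17-fold, Mx1 2.54-fold, Irf7 2.52-fold and Oasl 2.23-fold higher in EOM-DMD, 5 of 29 members where 4.34% of all genes were called higher and 9.95% lower. None of the members was called lower there. Irf7 had 89.1 and 225 CPM in these cells, and Mx1 77.6 and 197 CPM. The endothelial markers summed to 873 CPM in the TA-DMD and 145 CPM in the EOM-DMD myeloid-like cells, and their part in this result was not tested. The class sat in different clusters: 320 of the TA-DMD cells lay in cluster 29 (median 1045 UMIs), against 7 in EOM-DMD. In cluster 23, led by MHC class II genes (118 and 70 cells), 11 of 25 members were called higher in EOM-DMD, where 5.39% of all genes were, and none lower, where 6.42% were. Ifi27l2b was 10.6-fold higher there (8.74 to 12.9), and the core sum 2.64-fold (2.27 to 3.08). Cluster 23 had 27 cells in EOM-WT. In EOM-DMD over EOM-WT 6 of 24 members (Ifi27l2b, Ifit2, Ifit3, Mx1, Mx2 and Stat2) were called higher in it, where 5.41% of all genes were. None was called lower, where 4.16% were, and the core ratio was 1.49 (1.29 to 1.73). In cluster 16, led by Lyz2 and Tyrobp (127 and 64 cells), no member was called higher, where 2.86% of all genes were, and Stat2 was called lower, where 6.19% were. The core sum was 0.844 times that of TA-DMD there (0.765 to 0.933), on the other side of 1 from cluster 23.

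Schwann-like cells, the glia of peripheral nerve (280 and 74 cells), went the other way. There 8 of 23 members were called lower in EOM-DMD, where 7.21% of all genes were, and none higher, where 3.59% were. Ifi27l2b was 17.5-fold lower (10.8 to 30.4), from 664 to 37.9 CPM. Isg15 had 96.7 CPM in TA-DMD and 28.9 CPM in EOM-DMD, 3.34-fold (1.83 to 6.60), and Bst2 622 and 258 CPM, 2.41-fold (1.96 to 2.98). The others were Gbp2, Ifit3, Mx1, Oas1a and Trim25, each with 5 to 10 UMIs in EOM-DMD and 2.41-fold to 3.61-fold lower. The endothelial markers summed to 963 CPM in the TA-DMD and 44.5 CPM in the EOM-DMD Schwann-like cells, with Cldn5, Esam and Tie1 at 0 in the latter, and their part in this result was not tested.

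Myofibre-like cells, the contractile cells, could be compared between the WT and DMD labels only in TA (147 and 222 cells). Of 12 members tested, Ifi27l2b and Oas1a were called higher in TA-DMD, where 16.5% of all genes tested were, and none lower, where 11.6% were. Ifi27l2b had 72.9 and 878 CPM in TA-WT and TA-DMD, 12.1-fold apart (7.73 to 19.8), and Oas1a 31.2 and 186 CPM, 5.94-fold apart (2.93 to 13.6). Endothelial markers were high in both, at 1725 and 1293 CPM. Between the libraries labelled DMD (222 and 154 cells), 7 of 8 tested members were called lower in EOM-DMD (Bst2, Ifi27, Ifi27l2b, Irf1, Oas1a, Oasl2 and Psmb9), where 26.9% of all genes were, and Ifi44 higher, where 15.4% were. Bst2 had 535 and 9.62 CPM and Ifi27l2b 878 and 14.4 CPM in TA-DMD and EOM-DMD. The endothelial markers were at 16.8 CPM in EOM-DMD, with Kdr, Cldn5 and Tie1 at 0, so they moved with these members.

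Erythroid-like cells of TA were taken as a measure of free RNA, but Rsad2 ranked highest in them in TA-WT and their depth differed between the libraries. The median was 18255 UMIs per cell in TA-WT and 976 in TA-DMD, and its part in the following values was not tested. In these cells 15 of 17 members were called higher in TA-DMD, but so were 93.3% of all 2690 genes tested. Of the members 1 (Rsad2) was called lower, where 2.83% of all genes were. The members' median of 2.48 was close to the 2.44 of all genes.

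Among classes of at least 30 cells, Isg15 and Ifit3 were highest in neutrophil-like cells, a class of 52 cells in TA-DMD and 36 in EOM-DMD, too few for a comparison under the limit of 50 cells. Isg15 had 10295 CPM (1055 UMIs) in EOM-DMD and 1732 CPM (103 UMIs) in TA-DMD. Ifit3 had 8685 and 959 CPM, Oas1a 2449 and 740 CPM, and Irf7 878 and 168 CPM. These levels stood above those of endothelial-like cells in the same libraries, while Bst2, at 68.3 and 185 CPM, stood below. At least 3 core UMIs per 1000 were found in 34 of 36 cells in EOM-DMD (94.4%, 81.3 to 99.3) and in 8 of 20 in TA-DMD (40%, 19.1 to 63.9), where 32 cells were too shallow. The TA-DMD cells also held more RNA of other types: fibroblast markers summed to 13959 CPM there and to 449 CPM in EOM-DMD, and neutrophil markers to 60073 and 155511 CPM. The part of that RNA in the lower TA-DMD values was not tested. In endothelial-like cells neutrophil markers were near 0, at 0.519, 3.73, 0 and 6.12 CPM.

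The ligands themselves were nearly absent. Interferon gamma (Ifng) had 11 UMIs in the NK-like cells of TA-WT, 5 in those of TA-DMD and 2 in T-like cells of EOM-WT, and none elsewhere. Ifna1, a type I interferon, had 3 UMIs in endothelial-like cells of TA-DMD and 1 in NK-like cells of EOM-DMD, and Ifnb1 had none. The receptors were present. Ifnar1 had 100.1, 82.3, 114 and 108 CPM in endothelial-like cells of TA-WT, TA-DMD, EOM-WT and EOM-DMD, Ifnar2 had 149, 83.3, 145 and 91.9 CPM, and Ifngr1 had 454, 358, 408 and 319 CPM. Ifnar2 and Ifngr1 were lower in the library labelled DMD in both muscles, by less than 2-fold. Socs3, a feedback inhibitor of cytokine receptors, was 4.38-fold higher in TA-DMD (3.36 to 5.80) and 2.99-fold higher in EOM-DMD (2.03 to 4.52). It was the 1 gene called higher in TA among 14 tested of the 24 ligand, receptor and signalling genes, against 7.10% of all genes, and the median of the list was 0.05. In EOM Socs3 and Irf8 were called higher among 14, against 2.47% of all genes, with a median of 0.04.

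Other interferon-induced genes, a list of 32 found in the tables, gave a TA endothelial median of -0.22, close to that of the members. Ifitm1, Cxcl9 and Cxcl10 were called higher and Ifi35, Gbp1 and Oas2 lower among 28 tested, against 7.10% and 6.01% of all genes called. Cxcl10, a chemokine that draws T cells, was 7.51-fold higher (5.32 to 10.9), from 9.08 to 68.2 CPM. In EOM the median was 0.04, with Ifitm1 and Isg20 called higher among 24, against 2.47% of all genes. MHC class I genes gave medians of -0.35 in TA, where Tap2 was called lower, and -0.01 in EOM. Genes driven by NF-kB, the inflammatory transcription factor, differed in the other direction in TA, with a median of 1.60 and 7 of 10 called higher, against 7.10% of all genes. Of these 7, the 6 with the most UMIs were Vcam1, Cxcl1, Ccl2, Icam1, Sele and Il6. Icam1 was 18.4-fold higher (12.3 to 28.9) and Vcam1, also one of the genes that lead cluster 18, 15.8-fold (11.6 to 22.0). In EOM the NF-kB median was 0.51, and 4 of 9 (Vcam1, Ccl2, Cxcl1 and Il6) were called higher, against 2.47% of all genes.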

How the data were processed

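Per the labels' protocols, muscles were digested enzymatically and libraries made with the 10x Genomics 3′ kit, version 3.1. The authors deposited 1 matrix of whole UMI counts per library, not normalized, made with cellranger 4.0.0 per the file headers and with rn6 per the submitters' processing notes. Of 17504 barcodes, cells with at least 500 UMIs, at least 200 genes and at most 20% mitochondrial UMIs were kept (14233). Scrublet's own threshold marked 29 cells (0.204%), so the highest-scoring cells were removed at 0.8% per 1000 cells instead (676). In all, 22 barcodes occurred in more than 1 library. The total per library was 6522986 to 19196937 UMIs over the analysed cells. Cells were clustered (scanpy 1.11.5, Leiden resolution 1.0, 2000 variable genes, 30 components, 15 neighbours) with all interferon lists kept out of the variable genes. Of 33 clusters, 2 (195 cells) stayed unnamed. Counts were summed per class and library, and ratios carry exact conditional binomial intervals, levels exact Poisson intervals and shares Clopper-Pearson intervals. No test across samples was run, since each group holds 1 library. The scripts were tested on simulated data. All 32 genes are accounted for by a value, range or count. Values are given in full for the 10 members with the most UMIs over all analysed cells and for members called in the classes and contrasts described (erythroid-like cells by count), and list genes past 2-fold are named, at most 6 per list. The 10 genes most like the core have at least 50 UMIs in the endothelial-like cells of every library and the highest mean correlation with it. Other genes and values were chosen after they were seen. The members and all gene lists were chosen with earlier results of these data known. The alternatives tried were other filters, doublet settings, clusterings, depths, scalings, priors and low-count filters.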

Additional observations from a re-analysis of the deposited data

Results flagged for a closer look

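For 3 values the libraries labelled DMD and WT differed in opposite directions in the 2 muscles, with each counting interval on its own side of 1. Isg15 in endothelial-like cells had a log2 ratio of -1.03 in TA and 0.27 in EOM, a difference of 1.30. Isg15 in satellite-like cells had -1.78 in TA and 0.97 in EOM, a difference of 2.76. Mx2 in satellite-like cells had -1.51 in TA and 1.64 in EOM, a difference of 3.15. With 1 library per group, none of these differences was tested. The satellite-like values rest on 5 to 33 UMIs per library for Isg15 and 9 to 98 for Mx2. The 33 Isg15 UMIs of TA-WT came from few cells, a spread that counting intervals do not cover. Without the 5% of cells with the highest member share, no member was called lower in TA satellite-like cells. That can follow from choosing cells by the members compared. Within cluster 8 Mx2 was not among the members called lower in TA.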

How the results depend on the processing

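Not every called direction held. Bst2, called higher in TA mural-like cells, had a ratio below 1 within cluster 4, with an interval that included 1. Within the mural-like cluster 12, with 32 cells in TA-WT, Bst2 was still called higher. There 7 of 17 members were called higher, with a median of 0.67. The TA mural median was 0.069 and its genes called higher were 4 instead of 12 within cluster 4, the mural-like cluster with most cells labelled WT, chosen after seeing the data. In satellite-like cells of cluster 8 the median between the muscles labelled DMD was 0.44, the other recomputed median outside the counting interval of the middle members. The median in TA satellite-like cells was negative, at -0.18, in cluster 8, and at -0.12 with the stricter filter on cells (1000 UMIs or more and 10% mitochondrial UMIs or less), and that of FAP/fibroblast-like cells between the muscles labelled DMD was -0.01 without the 5% of cells with the highest member share. The TA endothelial median ran from -0.41 to -0.19, the EOM endothelial from 0.07 to 0.20, the TA mural from 0.069 to 0.88 and the EOM mural from 0.36 to 0.90. The 7 EOM mural genes called higher became 3 in thinned cells, where 10 could be tested, and 4 when members had to reach 0.2 times the highest class. The share of endothelial-like cells with core UMIs moved with the definition, given here for TA-WT, TA-DMD, EOM-WT and EOM-DMD: 58.3%, 47.7%, 61.0% and 61.7% at 2 UMIs, 15.6%, 8.99%, 18.8% and 21.5% at 5 UMIs, 15.4%, 9.05%, 17.9% and 19.4% when thinned to 500 UMIs, and 69.7%, 49.5%, 74.7% and 73.8% without thinning. It was lowest in TA-DMD in each. With the stricter filter it was 41.6% in TA-WT and 28.8% in TA-DMD, and without cluster 18, chosen after seeing the data, 35.2% in TA-DMD. The TA endothelial genes called lower numbered 5 instead of 3 without the 5% of cells with the highest member share. Those cells were chosen by the levels of the members compared, so a change in calls can follow from the choice itself. Counts of called genes under alternatives other than the clusters are given here without a share over all genes. No paired analysis was possible because each group holds 1 library.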
